A study of Mus musculus with 7 samples.

Results

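The 42 genes described here encode effectors of the interferon response, the proteins that act against viruses once a cell has sensed infection or bound interferon. They were chosen by name, as a list, with earlier results of these data known. All 42 were among the 25033 gene symbols counted in lineage depleted (lin-) bone marrow cells of 7 mice. After removal of genes with low counts, 41 of the 42 were among the 11265 genes tested between genotypes. *Oas2* was the gene that did not pass. The samples were 3 wild type mice (*HRP-2*+/+) and 4 *HRP-2* knockout mice (*HRP-2*-/-) of the line named C57BL/6N-Hdgfrp2<tm1b (KOMP)Wtsi>/Tcp, aged 6 to 8 weeks, in which the knockout is systemic and therefore present in every cell type of the marrow and its surroundings. The cells came from femur and tibia after lysis of red blood cells, and neither the labels nor the methods name an interferon, a virus or another agent given to the mice. HRP-2, whose gene is listed as *Hdgfl2*, is a chromatin-bound protein with a PWWP domain and an integrase binding domain and is a paralog of LEDGF/p75.

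Interferons of type I bind the receptor pair IFNAR1 and IFNAR2, and the kinases JAK1 and TYK2 then activate a complex that holds STAT2 and IRF9 and binds interferon-stimulated response elements near its target genes. Cells that are not infected keep a low, tonic level of this signaling, so many interferon-stimulated genes are read at a basal level in hematopoietic stem and progenitor cells. The genes below are ordered by what their proteins do: sensors of viral nucleic acid, enzymes that degrade or edit RNA, blocks to translation, the ISG15 conjugation system, ADP-ribosyltransferases, blocks to viral entry and release, TRIM and nuclear body proteins, and interferon-induced genes of other function.

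Promoter sequence was the first property examined that the choice of genes did not use. The RefSeq promoter table (GRCm38.p6) held 31 of the 42 genes and had no entry for *Dhx58*, *Zbp1*, *Oas2*, *Usp18*, *Parp9*, *Parp14*, *Mx1*, *Ly6e*, *Ifi27*, *Ifi27l2a* and *Rtp4*. The 250 bases before each start site were searched on both strands for the core of the interferon-stimulated response element, GAAANNGAAA (TTTCNNTTTC on the other strand). It was found for 9 of the 31 genes (29.0%), against 3.46% of the 27025 genes with an entry and 2.98% of all 32851 promoters. Among other interferon-stimulated genes, a comparison list described below, it was found for 29 of the 67 with an entry (43.3%). Windows of 5 genes are shown because these genes stand for the ISG15, *Ifit*, oligoadenylate and viperin arms described below. Each is written in the direction of its gene and lies wholly before the start site, with every match to the motif in capitals, and matches that overlap run together as a single block of capitals. They lie at chr4:156200845-156200914 on the minus strand (*Isg15*), chr19:34640774-34640843 on the plus strand (*Ifit1*), chr19:34583373-34583446 on the plus strand (*Ifit3*), chr5:120907526-120907569 on the minus strand (*Oas1a*) and chr12:26456533-26456602 on the minus strand (*Rsad2*).
Isg15: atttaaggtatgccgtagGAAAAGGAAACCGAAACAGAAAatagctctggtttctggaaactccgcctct
Ifit1: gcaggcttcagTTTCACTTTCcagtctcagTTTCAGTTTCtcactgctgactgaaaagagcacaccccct
Ifit3: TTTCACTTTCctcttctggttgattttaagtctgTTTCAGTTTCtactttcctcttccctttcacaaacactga
Oas1a: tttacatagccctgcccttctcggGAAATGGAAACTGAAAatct
Rsad2: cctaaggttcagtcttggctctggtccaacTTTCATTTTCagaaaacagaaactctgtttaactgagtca

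The *Isg15* window holds 3 overlapping matches, the *Ifit1*, *Ifit3* and *Oas1a* windows hold 2 each, and the *Rsad2* window holds 1. The other genes with a match were *Bst2*, *Ddx60*, *Oas3* and *Trim30a*. The matches are runs of letters and do not show that a factor was bound in these cells.

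The libraries held between 3525665 and 5605158 reads on genes. A floor of 3 reads corresponded to between 0.559 and 0.838 CPM, the unit of counts scaled to the size of each library, and it covers counting error only. Knockout of *HRP-2* was visible in the counts: the mean of *Hdgfl2* was 46.0 ± 3.40 CPM over the wild type mice and 1.28 ± 0.936 CPM over the knockout mice (SD, n = 3 and 4). Its log2 fold change, written here with the standard error (SE) of the fit, was −5.09 ± 0.34 (SE, adjusted p = 1.38e-07 by edgeR's quasi-likelihood test). Knockout replicate 3 stood apart by sex-linked genes, with 559 reads of *Ddx3y* and 3 of *Xist*. The other mice had at most 4 reads of *Ddx3y* and between 848 and 1457 of *Xist*. The labels give no sex, and the fits did not include it. The ribosomal precursor *Rn45s* took between 4.94% and 20.6% of the reads on genes. Of 12 stem and progenitor markers 11 were tested, among them *Kit* at 112 ± 11.1 CPM and *Mpo* at 5744 ± 929 CPM in wild type cells (SD, n = 3), and 8 markers of the lineages that the isolation removes summed to between 161 and 241 CPM in a mouse.

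Most of the antiviral effectors were read in the lin- cells of these mice, for which no stimulus is named. More than 3 reads were present in each of the 3 wild type libraries for 41 of the 42 genes and in all 7 libraries for 38. The library preparation gave 1 fragment per transcript, so CPM values were compared between genes without scaling to length. *Ly6e*, a membrane-anchored protein that blocks the entry of several viruses, was the most abundant with a level of 803 ± 125 CPM (SD, n = 3), which was 36.6% of the summed level of the 42 genes and the 99.0th percentile of the genes tested. *Trim30a*, *Sp100*, *Trim25*, *Dtx3l* and *Trafd1* followed at mean levels between 109.5 and 173 CPM, and these 6 genes made up 67.9% of the sum. At the other end, 15 genes had a mean under 10 CPM, among them all 5 of the oligoadenylate synthetase family and all 3 *Ifit* genes. The median percentile of the 41 tested genes was 36.4, and 15 of them lay at or above the median level of all genes tested. *Oas2* had 2, 10 and 2 reads in wild type replicates 1 to 3 and 0, 9, 2 and 7 reads in knockout replicates 1 to 4, which is at or under the floor in 4 of the 7 libraries. The 42 genes together took between 0.173% and 0.230% of the reads on genes.

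**Figure D1:**
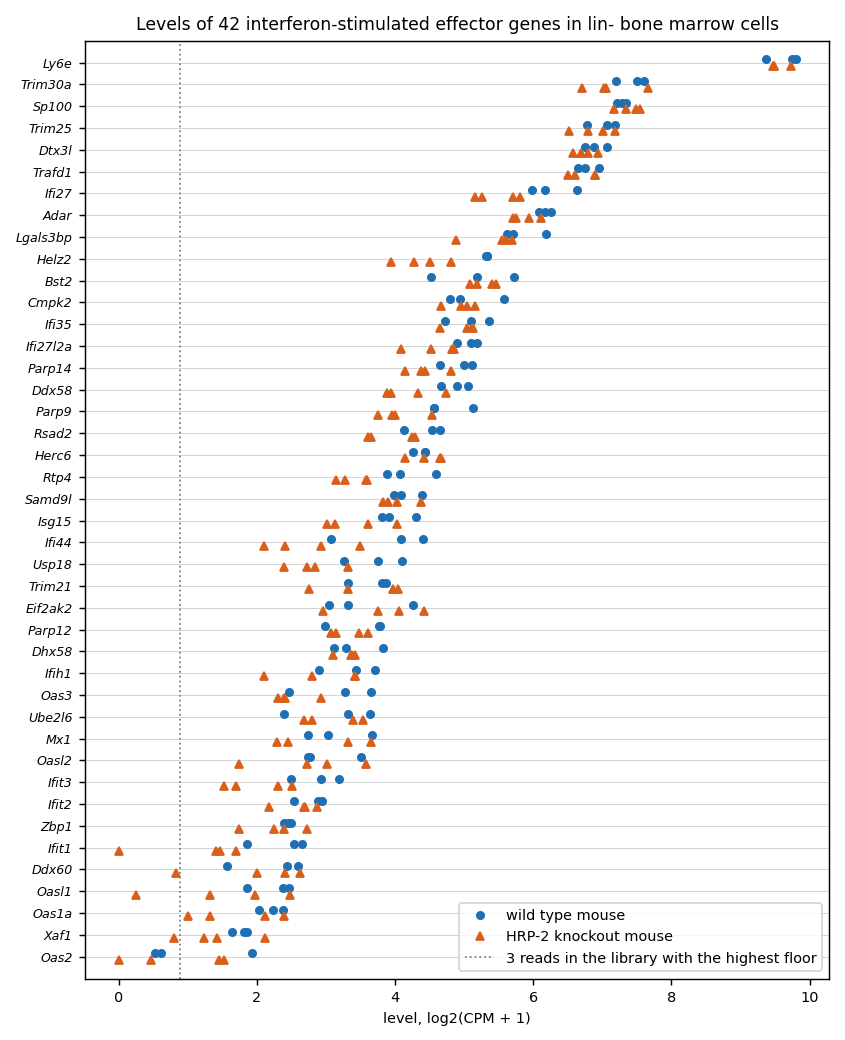
Level of each of the 42 genes, as log2(CPM + 1) on the horizontal axis, in the 3 wild type mice (circles) and 4 knockout mice (triangles), ordered by the wild type mean; the dotted line marks 3 reads in the library with the highest floor (0.838 CPM). *Ly6e* stands alone at the top with 659 to 889 CPM in wild type mice, and the oligoadenylate synthetase and *Ifit* genes fill most of the lower end.

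The comparison of genotypes asked which of these genes follow the loss of HRP-2 in mice with no named stimulus. None of the 41 tested genes was called at an adjusted p under 0.25 by edgeR's quasi-likelihood test with Benjamini-Hochberg adjustment over all 11265 genes, where 2 genes (0.0178%) were called in all. limma-voom called 0 of the 41 and 3 genes in all (0.0266%). DESeq2 called 2 of the 41, *Helz2* and *Ifi27*, and 21 genes in all (0.194% of those with an adjusted p). The smallest adjusted p among the 41 in edgeR's test was 0.544 (*Helz2*), followed by 0.769 (*Ifi27*), and it was 0.999 for the others. At an unadjusted p under 0.05, 11 genes were lower in knockout mice, against 2.07% of all genes tested, and 0 were higher, against 1.56%. For 6 genes, *Helz2*, *Ifi27*, *Ifi27l2a*, *Rtp4*, *Parp9* and *Ifit1*, each of the 4 knockout mice had less than each of the 3 wild type mice (2.8% of all genes tested), with knockout means between 0.333 and 0.715 of the wild type means. The opposite order was seen for 0 genes (2.37% of all genes tested). The fitted log2 fold change was below 0 for 37 of the 41 genes, against 50.2% of all genes tested, and its median was −0.29, against −0.0014 over all genes tested. The 4 genes above 0 were *Eif2ak2*, *Herc6*, *Sp100* and *Bst2*, and *Bst2* was below 0 without wild type replicate 1. Without wild type replicate 2, 31 of the 41 were below 0, and without knockout replicate 1, 32 were. These genes respond to the same signal and share mice, so they are not independent observations, and the counts above carry no test. The list was also drawn up with earlier results of these data known, so the counts are descriptions. In bulk cells, fewer cells of a type that expresses a gene and less of its RNA per cell cannot be told apart. The counts moved with the mice included: the number lower at an unadjusted p under 0.05 was 6 without wild type replicate 2, 7 without knockout replicate 4 and 8 without knockout replicate 3, against 1.92%, 2.1% and 2.31% of all genes in the same fits. With fewer mice more genes of any kind show no overlap. The number lower with no overlap was 10 without wild type replicate 2 (6.8% of all genes tested) or without knockout replicate 1 (5%), and 12 without wild type replicate 3 (6.2%) or without knockout replicate 2 (4.62%). Without knockout replicate 3 it was 6 (4.94% of all genes tested), the median was −0.27, and *Sp100* lay higher in every remaining knockout mouse (4.31% of all genes tested). The median was −0.50 without knockout replicate 2.

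**Figure D2:**
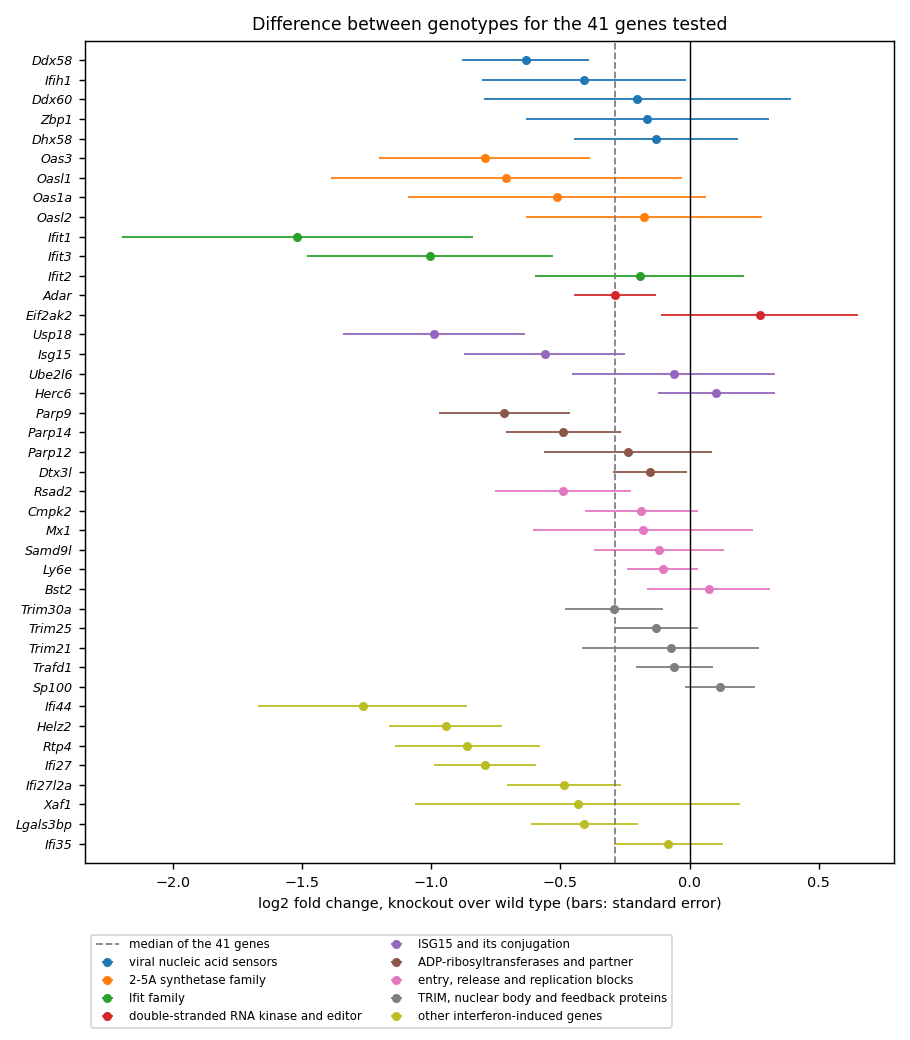
Log2 fold change of knockout over wild type for the 41 tested genes, grouped by role, with the standard error from edgeR's fit as bars; the dashed line is their median (−0.29) and the solid line is no difference. Of the 41 points, 37 lie left of the solid line, and the range runs from −1.52 (*Ifit1*) to 0.27 (*Eif2ak2*).

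All 5 sensors of viral nucleic acid had a log2 fold change below 0, and *Ddx58* was the sensor with an unadjusted p under 0.05. *Ddx58* encodes RIG-I, the helicase that recognizes viral RNA by its uncapped end. Its level was 24.3, 32.1 and 28.9 CPM in wild type replicates 1 to 3 and 25.6, 14.3, 19.2 and 13.7 CPM in knockout replicates 1 to 4. The genotypes overlapped through knockout replicate 1 alone, which stood above the lowest wild type mouse. *Ddx58* thus had a log2 fold change of −0.64 ± 0.24 (SE). *Ifih1* (MDA5, a sensor of long double-stranded RNA), *Dhx58* (LGP2, a regulator of both helicases), *Zbp1* (a sensor of Z-form nucleic acid) and *Ddx60* (a helicase linked to RIG-I signaling) had wild type means between 3.79 and 9.86 CPM, and the genotypes overlapped for each. The sign turned for 3 of the sensors when 1 mouse was left out: *Dhx58* without wild type replicate 2, *Zbp1* without knockout replicate 1, and *Ddx60* without wild type replicate 3 or without knockout replicate 1.

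The members of the oligoadenylate synthetase family that are active enzymes make the second messenger that turns on RNase L. *Oas1a* stood at 3.06, 4.19 and 3.71 CPM in wild type mice and at 4.27, 3.32, 1.49 and 0.994 CPM in knockout mice. Knockout replicate 1 was the highest of the 7 and replicate 4 the lowest, so the knockout mice spanned the wild type range. Its log2 fold change was −0.52 ± 0.58 (SE), less than its error. *Oas3*, *Oasl1* and *Oasl2* also had fold changes below 0 with overlapping groups, and *Oasl1* had 1 read in knockout replicate 3. The sign of *Oasl2* turned without wild type replicate 2, without knockout replicate 1 and with the *Rn45s* share as a covariate, an alternative chosen after seeing the data.

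The 3 *Ifit* proteins bind viral RNA and block its translation. *Ifit1*, which holds RNA whose cap lacks a methyl group, had 12, 19 and 18 reads in wild type mice, or 2.63, 5.31 and 4.77 CPM. It had 9, 8, 12 and 0 reads in knockout mice, or 1.74, 1.66, 2.24 and 0 CPM, where 0 reads allow up to 0.746 CPM in that library. Every knockout mouse lay below every wild type mouse, on few reads. At −1.52 ± 0.68 (SE), *Ifit1* had the lowest log2 fold change of the 41 genes. *Ifit3*, a partner that stabilizes *Ifit1* protein on RNA, stood at 4.60, 8.10 and 6.63 CPM in wild type mice and 4.65, 3.94, 1.86 and 2.24 CPM in knockout mice. Only knockout replicate 1 reached the wild type range, just above its lowest mouse, and the log2 fold change was −1.0 ± 0.48 (SE). *Ifit2* stood at 6.35, 6.71 and 4.77 CPM in wild type and 5.43, 3.52, 6.34 and 5.47 CPM in knockout mice, with a log2 fold change of −0.19 ± 0.40 (SE). Whether the *Ifit* genes differed from each other in their response was not tested. They lie within 200 kb on chromosome 19 (*Ifit2* at 34550694 to 34576419, *Ifit3* at 34583531 to 34588731 and *Ifit1* at 34640871 to 34650009 in GENCODE M21), all on the plus strand.

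The double-stranded RNA kinase and the RNA editor did not share a direction. *Eif2ak2* encodes PKR, which stops translation by phosphorylating eIF2α, and its level spread from 7.22 to 18.2 CPM among wild type mice and from 6.79 to 20.4 CPM among knockout mice. *Adar*, which converts adenosine to inosine in double-stranded RNA, was steadier at 71.0 ± 4.39 CPM in wild type and 58.1 ± 7.64 CPM in knockout mice (SD, n = 3 and 4), with knockout replicate 1 inside the wild type range.

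ISG15 is a ubiquitin-like protein that UBE2L6 and HERC6 attach to other proteins and USP18 removes. USP18 also binds the interferon receptor and dampens its signal. *Usp18* stood at 8.53, 16.2 and 12.5 CPM in wild type replicates 1 to 3 and at 4.27, 5.60, 6.15 and 8.95 CPM in knockout replicates 1 to 4. Knockout replicate 4 passed the lowest wild type mouse, and the other knockout mice were lower than every wild type mouse. The log2 fold change of *Usp18* was −0.99 ± 0.35 (SE). *Isg15* itself stood at 14.0, 18.7 and 12.99 CPM in wild type mice and at 7.75, 15.3, 7.08 and 11.2 CPM in knockout mice. Knockout replicate 2 was within the wild type range and the other knockout mice were below it, giving a log2 fold change of −0.56 ± 0.31 (SE). The conjugating enzymes showed no such order: *Ube2l6* had 8.22 ± 3.67 CPM in wild type and 7.86 ± 2.56 CPM in knockout mice, and *Herc6* had 19.8 ± 1.45 CPM and 21.3 ± 3.64 CPM (SD, n = 3 and 4).

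Of the ADP-ribosyltransferase group, *Parp14*, *Dtx3l* and *Parp9* follow each other on chromosome 16, and *Parp12* lies on chromosome 6. *Parp9* stood at 22.54, 34.1 and 22.53 CPM in wild type mice and at 12.4, 22.2, 14.5 and 14.9 CPM in knockout mice. No knockout mouse reached the lowest wild type mouse, although replicate 2 came close. For *Parp9* the log2 fold change was −0.72 ± 0.25 (SE). *Dtx3l*, whose protein works in a complex with PARP9, stood at 116, 133 and 107 CPM in wild type mice and at 102, 121, 94.3 and 110.1 CPM in knockout mice, with overlap and a log2 fold change of −0.15 ± 0.14 (SE). *Parp9* (chr16:35938470-35972605, plus strand) and *Dtx3l* (chr16:35926511-35939151, minus strand) overlap by 682 bases at their starts. *Parp14* (chr16:35832874-35871544, minus strand) encodes a mono-ADP-ribosyltransferase. It stood at 33.5, 24.0 and 31.0 CPM in wild type mice and at 20.6, 27.2, 19.8 and 16.7 CPM in knockout mice, with knockout replicate 2 above the lowest wild type mouse. Its log2 fold change was −0.49 ± 0.22 (SE). *Parp12* had 10.7 ± 3.32 CPM in wild type and 9.13 ± 1.83 CPM in knockout mice (SD, n = 3 and 4).

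Of the 6 genes whose proteins block entry, release or replication, 0 had an unadjusted p under 0.05. Over all genes tested 2.07% were lower and 1.56% higher at that p, so 0 of 6 does not set this group apart. *Ly6e* stood at 859, 889 and 659 CPM in wild type mice and at 716, 713, 848 and 707 CPM in knockout mice. The lowest mouse was wild type, and the log2 fold change was −0.11 ± 0.14 (SE). *Rsad2* encodes viperin, which makes a chain-terminating nucleotide, and stood at 22.1, 16.5 and 24.1 CPM in wild type and 18.6, 18.0, 11.6 and 11.2 CPM in knockout mice. Knockout replicates 3 and 4 were the lowest of the 7, and the log2 fold change was −0.49 ± 0.26 (SE). *Mx1* encodes a dynamin-like GTPase and carries an inactivating deletion in C57BL/6 mice. It stood at 5.69, 11.7 and 7.16 CPM in wild type and at 3.88, 11.6, 4.47 and 8.95 CPM in knockout mice. With −0.18 ± 0.43 (SE), the log2 fold change of *Mx1* was within its error, and its sign turned without wild type replicate 2 (0.17). *Bst2* (tetherin, which holds budding virions at the membrane) spread from 21.9 to 52.0 CPM among wild type mice, wider than its range among knockout mice of 33.0 to 43.0 CPM. *Cmpk2*, a mitochondrial nucleotide kinase gene next to *Rsad2*, and *Samd9l*, an inhibitor of translation, had overlapping groups with wild type means of 34.4 and 16.9 CPM.

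Of the 5 TRIM, nuclear body and feedback genes, 4 were among the 6 most abundant of the 42, and log2 fold changes ran from −0.29 to 0.12. *Trim30a* (a brake on Toll-like receptor signaling) differed by −0.29 ± 0.19 (SE) on the log2 scale, with 173 ± 24.5 CPM in wild type and 141 ± 42.2 CPM in knockout mice (SD, n = 3 and 4). For *Trim25*, the ubiquitin ligase that acts on RIG-I, the log2 fold change was −0.13 ± 0.16 (SE). *Trafd1*, a feedback regulator of innate signaling, had −0.06 ± 0.15 (SE), with a sign that turned without wild type replicate 1 (0.043). *Sp100*, a component of PML nuclear bodies, had 0.12 ± 0.14 (SE), with 154 ± 7.22 CPM in wild type and 167 ± 19.5 CPM in knockout mice. *Trim21*, the cytosolic receptor for antibody-coated virus, overlapped with means of 11.8 and 11.2 CPM.

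The remaining 8 genes held 5 of the 11 lower at an unadjusted p under 0.05 and 4 of the 6 with no overlap. Over all genes tested the shares were 2.07% and 2.8%. Genes and roles were chosen with earlier results of these data known, so these counts are descriptions. *Helz2* encodes a helicase that acts as a nuclear coactivator. Its level was 39.0, 39.1 and 39.2 CPM in wild type replicates 1 to 3 and 14.3, 27.2, 18.3 and 21.6 CPM in knockout replicates 1 to 4. The wild type mice were nearly level with each other and the highest knockout mouse, replicate 2, was well below them. Its log2 fold change was −0.94 ± 0.22 (SE, adjusted p = 0.544 by edgeR's quasi-likelihood test), and the adjusted p of *Helz2* was 0.0931 in DESeq2 and from 0.0255 to 0.9999 over the 15 alternatives run. *Ifi27*, which encodes a small membrane protein of mitochondria and the nuclear envelope, stood at 97.8, 62.3 and 70.8 CPM in wild type and at 34.7, 51.4, 37.3 and 55.2 CPM in knockout mice. The knockout mice were all lower than the lowest wild type mouse, and the log2 fold change was −0.79 ± 0.20 (SE, adjusted p = 0.769 by edgeR's quasi-likelihood test). In DESeq2 the adjusted p of *Ifi27* was 0.242, and over the alternatives it ran from 0.0127 to 0.9999. *Ifi27l2a*, a relative next to *Ifi27* on chromosome 12, stood at 28.9, 33.2 and 35.5 CPM in wild type and at 21.9, 27.4, 16.0 and 27.8 CPM in knockout mice, again without overlap. The log2 fold change of *Ifi27l2a* was −0.49 ± 0.22 (SE). Reads that map to both relatives would make the split between them uncertain, and such reads were not examined. *Rtp4*, a chaperone of membrane receptors, stood at 15.8, 23.2 and 13.8 CPM in wild type and at 11.1, 11.0, 7.83 and 8.70 CPM in knockout mice. No knockout mouse reached the wild type range, and the log2 fold change was −0.86 ± 0.28 (SE). *Rtp4* overlaps *Masp1* on the other strand, and which strand was counted is not stated. *Ifi44*, a cytoplasmic protein gene strongly induced by type I interferon, stood at 16.0, 20.1 and 7.42 CPM in wild type and at 3.30, 6.63, 4.29 and 10.2 CPM in knockout mice. Wild type replicate 3 lay among the knockout mice, and the log2 fold change was −1.26 ± 0.40 (SE). *Lgals3bp*, *Xaf1* and *Ifi35* overlapped between genotypes, with wild type means of 57.0, 2.42 and 32.8 CPM.

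The lower levels were not shared alike by the 4 knockout mice. Averaged over the 41 genes, the deviation of log2(CPM + 1) from the wild type mean was −0.48 in knockout replicate 1, −0.53 in replicate 3 and −0.37 in replicate 4, but −0.11 in replicate 2. In the wild type mice it was −0.042, 0.12 and −0.082. Knockout replicate 2 thus lay close to the lowest wild type mouse and the other knockout mice lay further down. Of the 41 genes, 34, 22, 36 and 30 were below the wild type mean in knockout replicates 1 to 4, and 21, 13 and 20 were below it in wild type replicates 1 to 3. Knockout replicates 1 and 3 each had the lowest value of the 7 mice for 13 genes, replicate 4 for 9 and replicate 2 for 2. Wild type replicate 2 had the highest value for 17 genes, the most of any mouse. Among the 35 genes with at least 10 reads in every mouse, the mean deviations of the knockout mice were −0.47, −0.11, −0.48 and −0.24. Knockout replicates 1 and 3 remained the lowest and replicate 2 the highest of the knockout mice.

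**Figure D3:**
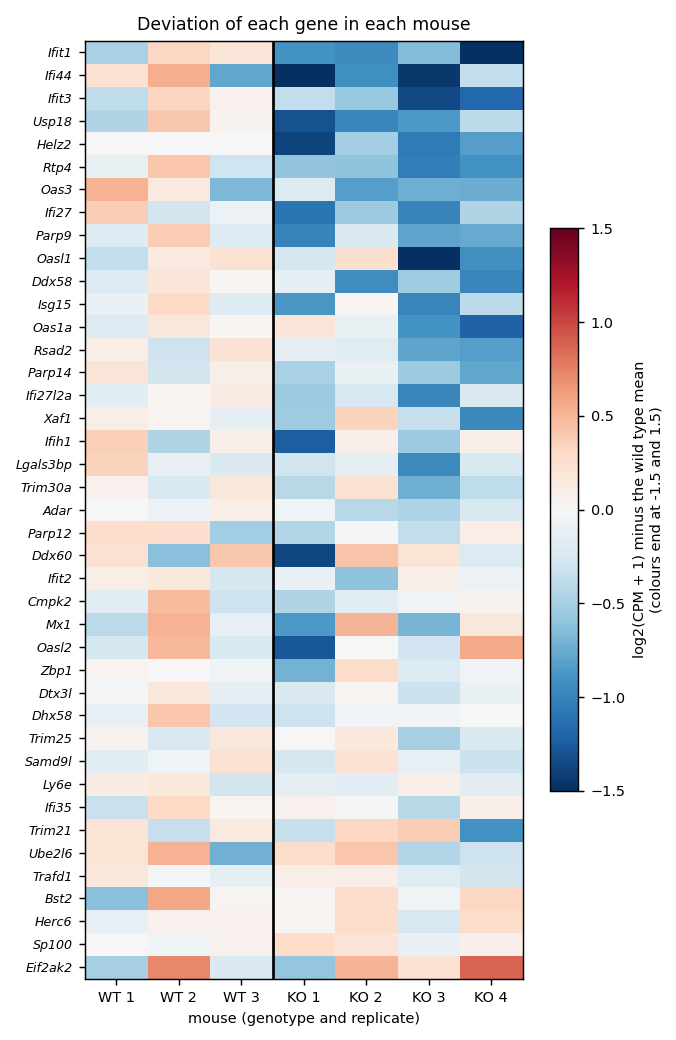
Deviation of log2(CPM + 1) from the wild type mean for the 41 tested genes (vertical, ordered by log2 fold change) in each of the 7 mice (horizontal), with blue for lower and red for higher values and colours that end at −1.5 and 1.5. The columns of knockout replicates 1, 3 and 4 are mostly blue (34, 36 and 30 of 41 genes below the wild type mean), and the column of knockout replicate 2 is mixed (22 of 41).

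How tightly the genes moved together was described by the correlation of their deviations from the genotype mean over the 7 mice. All values of a mouse come from the same library and share its depth and composition. The median Pearson's r over the 820 pairs was 0.17, against −0.00059 over all pairs of the genes tested, and 26.0% of the pairs had an r over 0.5, against 17.1%. Without knockout replicate 2 the median r of the 41 genes was 0.040, against −0.00049 over all genes, and 23.8% of the pairs had an r over 0.5, against 20.6%. With the genotype mean left in, the median r was 0.31, against −0.0011 over all genes. That value also holds the difference between genotypes. For scale, the 5 tested genes of 9 on an erythroid list had a median r of 0.85 in the same libraries. The median was 0.098 for 11 stem and progenitor genes, 0.028 for 71 other interferon-stimulated genes and −0.0030 for 10 macrophage genes. Of the stem and progenitor pairs, 36.4% had an r over 0.5.

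**Figure D4:**
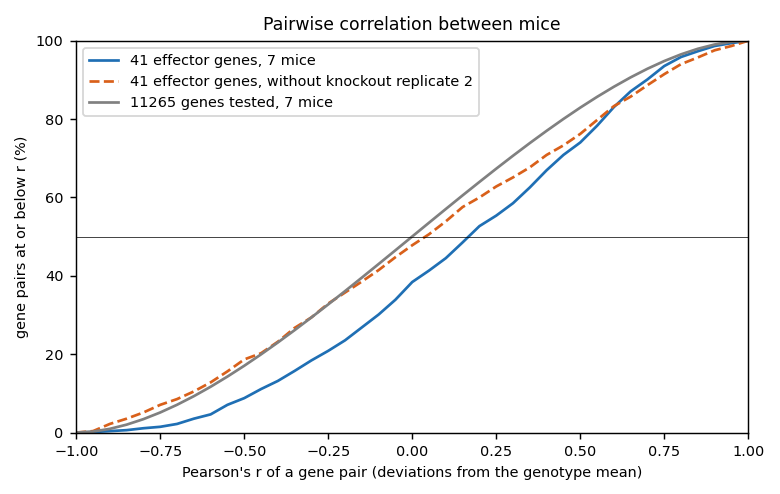
Cumulative share of gene pairs (vertical, in %) by Pearson's r of their deviations from the genotype mean (horizontal), for the 41 genes over 7 mice, the same genes without knockout replicate 2, and all 11265 genes tested. The solid curve of the 41 genes crosses 50% at 0.17, the dashed curve without knockout replicate 2 at 0.040, and the grey curve of all genes at −0.00059.

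Compared with the mean of the other tested genes of the 41, *Isg15* followed the group most closely, with a Pearson's r of 0.98 over 7 mice. *Dtx3l* (0.93), *Parp9* (0.90) and *Mx1* (0.87) came next, and each of these 4 genes stayed at 0.78 or higher without knockout replicate 2. The order changed without that mouse, with *Dtx3l* (0.97) above *Isg15* (0.96) and *Dhx58* (0.79) above *Parp9* (0.78). Over the 7 mice r was over 0 for 34 of the 41 genes and over 0.5 for 15, with a median of 0.43. Without knockout replicate 2 it was over 0 for 25 and over 0.5 for 15, and the median was 0.21. *Ifit2* (−0.60) and *Ddx58* (−0.49) had the lowest values. That order rested on knockout replicate 2, without which *Ifit2* had 0.32 and *Ddx58* −0.24, and the lowest were *Parp14* (−0.91, from 0.25) and *Trim21* (−0.88, from −0.092). The 4 genes with the lowest log2 fold changes were not among *Isg15*, *Dtx3l*, *Parp9* and *Mx1*. *Ifit1* had an r of −0.11, *Ifi44* of 0.50, *Ifit3* of 0.39 and *Usp18* of 0.20. Without knockout replicate 2 these were −0.51, 0.75, 0.17 and 0.61.

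Neighbouring genes showed no common pattern. Among 10 pairs of tested genes within 200 kb of each other, r was over 0 for 6 and the median was 0.070. *Parp9* and *Dtx3l*, whose starts lie 681 bases apart on opposite strands, had an r of 0.84. Reads from these overlapping genes could be assigned to either if strand was not used. *Rsad2* and *Cmpk2*, whose starts lie 12752 bases apart on opposite strands, had an r of −0.82, and among the *Ifit* genes r ran from −0.42 (*Ifit2* and *Ifit3*) to 0.44 (*Ifit1* and *Ifit3*).

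The 9 genes with a response element match and the 22 with a promoter entry and no match can be set beside each other. Of the 9, 8 had a log2 fold change below 0, with a median of −0.52 and 2 genes at an unadjusted p under 0.05. Of the 22, 19 were below 0, with a median of −0.18 and 3 genes at an unadjusted p under 0.05. Over all genes tested, 50.2% were below 0 and 2.07% were lower at an unadjusted p under 0.05. The other 6 of the 11 genes at that p, *Usp18*, *Parp9*, *Parp14*, *Ifi27*, *Ifi27l2a* and *Rtp4*, have no promoter entry and fall outside the split. The genes with a match were also the less abundant, with a median wild type level of 8.25 CPM against 18.4 CPM, and the difference between the medians was not tested.

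The receptors and signal carriers upstream of these effectors were read in every mouse, while most interferon genes were not. Of 21 interferon genes 1 was tested: *Ifng*, the type II interferon, at 11.3 ± 3.09 CPM in wild type and 11.0 ± 4.44 CPM in knockout mice (SD, n = 3 and 4; log2 fold change −0.04 ± 0.34, SE). *Ifnb1* had 0 reads in all 7 libraries, and *Ifna13*, *Ifnk* and *Ifnz* were the other interferon genes with any read, at most 3 in a library. Of 16 receptor and JAK-STAT genes, 10 were lower and 6 higher, and the smallest adjusted p was 0.999 in edgeR's quasi-likelihood test. *Ifnar1*, a chain of the type I receptor, stood at 44.6, 51.4 and 59.9 CPM in wild type and at 36.8, 42.5, 38.0 and 42.7 CPM in knockout mice, without overlap (log2 fold change −0.38 ± 0.17, SE). *Irf9*, the DNA-binding subunit of the complex with STAT2, stood at 109.6, 118 and 94.3 CPM in wild type and at 87.4, 91.0, 86.8 and 86.7 CPM in knockout mice. Its groups did not overlap either, and the log2 fold change was −0.28 ± 0.14 (SE). *Stat2* (log2 fold change 0.06 ± 0.22, SE) and *Ifnar2* (−0.05 ± 0.13, SE) overlapped between genotypes. Among 7 tested IRF genes, 5 were lower and 2 higher. *Irf7*, which amplifies type I interferon production, stood at 28.4, 25.4 and 23.1 CPM in wild type and at 16.7, 24.0, 10.2 and 18.1 CPM in knockout mice, with knockout replicate 2 the only one to reach the wild type range (log2 fold change −0.57 ± 0.26, SE).

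Of 79 other interferon-stimulated genes, 71 were tested, 49 were lower and 22 higher, and the median log2 fold change was −0.14, against −0.0014 over all genes tested. At an unadjusted p under 0.05, 9 were lower and 2 higher, against 2.07% and 1.56% of all genes tested, and 0 passed an adjusted p of 0.25. Among the 5 with the smallest p, *Iigp1* (log2 fold change −1.22 ± 0.48, SE), *Irgm2* (−0.68 ± 0.28, SE) and *Psmb9* (−0.35 ± 0.14, SE) were lower in knockout mice, and *Aim2* (0.61 ± 0.21, SE) and *Ms4a4c* (0.59 ± 0.24, SE) were higher. *Iigp1* and *Irgm2* encode immunity-related GTPases, *Psmb9* a subunit of the immunoproteasome and *Aim2* a sensor of cytosolic DNA.

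Markers of other cells were read in the same mice, and 0 of the tested genes of these lists had an adjusted p under 0.25 in edgeR's quasi-likelihood test. Of 12 macrophage markers 10 were tested, and 9 had a log2 fold change below 0 and 1 above. In 7 the knockout mice lay lower with no overlap (2.8% of all genes tested), 7 were lower at an unadjusted p under 0.05 (2.07% of all genes tested), and the median log2 fold change was −0.65. The summed level of the list was 368 to 428 CPM in wild type and 262 to 301 CPM in knockout mice, without overlap. *C1qc* and *C1qa*, subunits of complement C1q made by tissue macrophages, had log2 fold changes of −1.0 ± 0.20 and −0.72 ± 0.19 (SE), with adjusted p = 0.322 and 0.800 by edgeR's quasi-likelihood test. *Siglec1* had 0, 3 and 5 reads in wild type and 0 in every knockout library, and *Adgre1* had 9.73 ± 2.62 CPM in wild type and 9.64 ± 1.08 CPM in knockout mice (SD, n = 3 and 4). All 10 neutrophil markers had log2 fold changes above 0 with overlapping groups, 0 at an unadjusted p under 0.05, a median of 0.72 and a sum of 7970 to 11110.4 CPM in wild type and 9048 to 25136 CPM in knockout mice. The sum was lowest among knockout mice in replicate 2 and highest in replicate 3. Of 8 monocyte markers 7 had log2 fold changes above 0 and 1 below, 4 were higher at an unadjusted p under 0.05 (1.56% of all genes tested) and 2 with no overlap (2.37%), with a sum of 2428 to 2453 CPM in wild type and 2665 to 3545 CPM in knockout mice. The 10 markers of plasmacytoid dendritic cells, the main producers of type I interferon, summed to 1375 to 1878 CPM and 1465 to 1812 CPM, with 3 log2 fold changes below 0 and 7 above. Immediate-early genes, which respond to handling of cells, had log2 fold changes above 0 for 15 of 16, with a median of 0.46. Over all genes tested, 50.2% were below 0 and the median was −0.0014. Of the 16, 2 were higher at an unadjusted p under 0.05 (1.56% of all genes tested) and 1 with no overlap (2.37%). The part of these values in the levels of the antiviral genes was not tested.

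**Figure D5:**
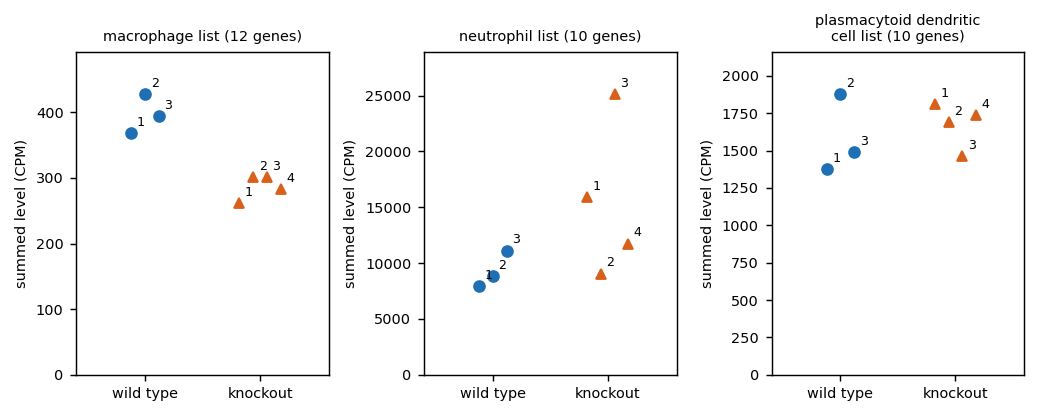
Summed level (vertical, in CPM from 0) of the macrophage, neutrophil and plasmacytoid dendritic cell marker lists in each wild type mouse (circles) and knockout mouse (triangles), with the replicate number beside each point. The macrophage sum does not overlap between genotypes (368 to 428 against 262 to 301 CPM), the neutrophil sum is widest in the knockout mice, and the dendritic cell sums overlap.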

How the data were processed

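RNA of lin- bone marrow cells (500 ng) was made into 3′ end libraries from the poly(A) tail, with single reads of 75 bp. The authors mapped them with STAR to GRCm38, checked them with FastQC and tested them with DESeq2, as the methods and the submitters' processing notes state, and deposited whole-number counts per gene symbol, without normalization, for each mouse. The strand counted was not given in the sources used here. Each file ends in 5 tally lines (29.4% to 33.6% of all reads), which were left out.

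Genes with low counts were dropped with filterByExpr, libraries were scaled by TMM, and genotype was tested over all 7 mice with the robust quasi-likelihood test of edgeR (version 4.0.16, R version 4.3.3), with Benjamini-Hochberg adjustment over all genes tested. CPM values were computed from the reads on all genes of a library times its TMM factor. The biological coefficient of variation was 21.3%. Genes were called at an adjusted p under 0.25, the false discovery rate threshold that the study used, with 0.05 beside it (the same 2 genes). The methods name no covariate. limma 3.58.1 (voom) and DESeq2 1.42.0 were alternatives. Scripts were tested on simulated counts. Correlations used log2(CPM + 1). No library was a repeat of another within sampling noise. The labels call the mice biological replicates, and the replicate number does not pair them.

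The 42 genes, their roles and the comparison lists were chosen with earlier results of these data known, so their counts and medians are descriptions. Fold changes are given for genes with no overlap between genotypes or an unadjusted p under 0.05, the 6 most abundant, and *Isg15*, *Ifit1*, *Ifit2*, *Ifit3*, *Usp18*, *Rsad2*, *Mx1* and *Oas1a*. From the lists, *Stat2*, *Irf9*, *Irf7*, *Ifnar1*, *Ifnar2*, any detected interferon and up to 5 genes per list by p were eligible (an item of this rule is not reported here), and *Hdgfl2*, *Rn45s*, *Ddx3y*, *Xist*, *Kit*, *Mpo*, *Siglec1* and *Adgre1* were added as checks. Gene coordinates are from GENCODE M21 (GRCm38) and promoters from RefSeq (GRCm38.p6).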

Additional observations from a re-analysis of the deposited data

Results flagged for a closer look

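Among the knockout mice, 2 values stood far from the other 3 of their gene, out of 42 genes examined, where chance alone marks about 1 group in 20 (2.1 genes here). *Oas3* stood at 6.59 CPM in knockout replicate 1, against 3.94 to 4.29 CPM in the other knockout mice. *Ly6e* stood at 848 CPM in knockout replicate 3, against 707 to 716 CPM in the others.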

How the results depend on the processing

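The number of the 41 genes called at an adjusted p under 0.25 was 0, and 2 in DESeq2 (*Helz2* and *Ifi27*) and 3 without the filter on low counts (*Helz2*, *Ifi27* and *Ifi44*), where 21 and 41 genes were called in all; it was 0 in every fit that left out a mouse. The number lower at an unadjusted p under 0.05 was 11 (2.07% of all genes tested). When a mouse was left out it ran from 6 (without wild type replicate 2, 1.92%) to 13 (without knockout replicate 2, 1.81%). With the replicate number as a block it was 7, and the share over all genes was not computed for that fit. The numbers do not pair the mice (correlations of same-numbered mice −0.021, −0.29 and −0.22), and the block turned *Trafd1* to 0.0097. When a mouse was left out, the number of genes lower with no overlap ran from 6 to 12, the number higher with no overlap from 0 to 1, the median log2 fold change from −0.50 to −0.21, and the median pairwise correlation from 0.040 to 0.24. That correlation was 0.31 with the genotype mean left in, against −0.0011 over all genes tested. *Mx1* changed sign without wild type replicate 2 (0.17), without knockout replicate 1 (0.033) and once the *Rn45s* share entered as a covariate (0.0056), an alternative chosen after seeing the data. *Trafd1* changed sign without wild type replicate 1 (0.043) and without knockout replicate 4 (0.0084). With a mouse left out, *Mx1* ran from −0.51 to 0.17 and *Trafd1* from −0.13 to 0.043. The cause was not tested. Of the 41 genes, 12 changed sign in at least 1 alternative and 29 in none; among those with printed fold changes they were *Mx1* and *Trafd1*. *Ifit1*, *Ifit3* and *Oas1a* had no value where 10 reads were asked of every mouse. The *Ifit* genes rest on at most 34 reads a library, which limits their precision.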
